A study of Mus musculus with 10 samples.

Results

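The genes described here are 10 components of epithelial cell junctions: the claudins Cldn3, Cldn4, Cldn6, Cldn7 and Cldn26, the scaffold gene Tjp1, the adhesion genes Cdh1 and Epcam, and the desmosomal genes Dsp and Perp, chosen by symbol with earlier results of these data known. The bulk table held all 10 among 17793 genes. The single-cell tables held 9 of them by symbol among 25038 genes outside the mitochondrion, and the row Tmem114 stood for the tenth, because RefSeq lists Cldn26 as another name of Tmem114 on chromosome 16. The tables place Cldn3 and Cldn4 on chromosome 5, Cldn6 and Epcam on 17, Cldn7 on 11, Cldn26 on 16, Tjp1 on 7, Cdh1 on 8, Dsp on 13 and Perp on 10. Values from single cells are given as Tmem114 and values from bulk as Cldn26.

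RNA was counted with CEL-Seq2, a method that reads the 3′ end of each transcript, in 10 libraries of mouse trophoblast stem cells (TSCs) and related cells on a C57BL/6J background. The 4 single-cell libraries carried a GFP cassette integrated at random, with 1 plate of 384 wells for each group: TSCs labelled F4 grown in Tx medium, differentiated TSCs with the same F4 label after 6 days without Fgf4, Tgfb and heparin, newly derived pTSCs grown in LT21 medium, and pTSCs of line pTS1 taken out of blastoids, which are embryo-like structures built from stem cells. The 6 bulk libraries came from TSCs with eGFP knocked in at the CDX2 coding sequence, sorted into 3 CDX2-high libraries (37, 38 and 39) and 3 CDX2-low libraries (40, 41 and 42). Nothing in the labels says whether the 3 libraries of a group came from separate cultures, so the p-values speak only of the spread from library to library, and the single-cell groups of 1 library allow no test.

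Epithelial cells are joined by belts of proteins that span their membranes. Claudins form the strands of the tight junction, the seal that limits passage between cells, and Tjp1 (ZO-1) ties those strands to actin. E-cadherin, the product of Cdh1, forms the adherens junction, Epcam is an adhesion protein that binds and stabilises claudins, and desmosomes, with the plaque protein desmoplakin (Dsp) and the membrane protein Perp, anchor keratin filaments. In the blastocyst the trophectoderm, the layer from which trophoblast stem cells are derived, needs this seal to hold the fluid of the cavity.

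Single-cell wells entered at a total of 2000 UMIs or more, mitochondrial genes not counted: 318 differentiated, 318 TSC, 299 pTSC and 257 blastoid wells, with median depths of 8473, 15091, 6844 and 8242 UMIs, and no well had the same counts in any pair of libraries. Bulk totals were 116659 to 272030 counts, and every CDX2-high library was deeper than every CDX2-low one. The TSC library held the stem cell genes Eomes (2030 UMIs), Cdx2 (269) and Elf5 (204), and the differentiated library held 388, 8 and 2. In CPM (counts scaled to a common library total), Eomes was at 377 and 119, Cdx2 at 49.9 and 2.46 and Elf5 at 37.9 and 0.615. In bulk, Cdx2 itself had 0 to 5 counts, too few to check the sort. The libraries labelled F4 did not match in sex-linked RNA. In them, 5 Y-linked genes summed to 226 UMIs in 139 differentiated wells and to 0 in TSC wells. Xist had 14 UMIs in the differentiated and 1515 in the TSC library. The pTSC library differed from the differentiated one in the same way, with 1 Y-linked UMI and 474 Xist UMIs. Results for the differentiated library are given against the TSC and the pTSC library, neither of which matches it in sex-linked RNA. The origin and the treatment of the differentiated library cannot be told apart. Of the other cell types, primitive endoderm markers summed to 14.7 to 21.3 and fibroblast markers to 17.6 to 62.4 CPM in the single-cell libraries. Epiblast markers summed to 601 to 1105 CPM, carried in every library by Utf1 and Zfp42, while Pou5f1 had 0 to 6 UMIs; Nanog was not analysed here in single cells.

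Between CDX2-high and CDX2-low TSCs the claudins went in both directions. Cldn26 was higher and Cldn4 was lower in CDX2-high libraries, and Perp was higher and Dsp lower among the desmosomal genes. The adhesion genes Cdh1 and Epcam had log2 fold changes near 0 and did not pass. In all, 2 of the 9 tested members rose and 2 fell (edgeR quasi-likelihood test, Benjamini-Hochberg adjusted p under 0.05), beside 3.09% of 3006 tested genes that rose and 2.79% that fell. The median log2 fold change was -0.31 over the members, which is the value of Cldn6, and -0.01 over all tested genes. The members' median moved to -0.15 without library 39 or 41 and to -0.53 without library 42, and to -0.02 over the 8 members left after thinning to equal depth. In bulk RNA, fewer cells that express a gene and less RNA per cell cannot be told apart. Markers of primitive endoderm summed to 38.1 to 66.2 CPM in CDX2-high and 68.6 to 81.5 CPM in CDX2-low libraries (8 of 12 with a count, Sox17 and Sox7 at 0), trophoblast markers to 1746 to 1986 and 2383 to 2763 CPM, and epiblast markers to 467 to 638 and 378 to 489 CPM. Of 8 tested trophoblast markers, 0 rose and 2 fell with high CDX2. The median log2 fold change of these 8 was 0.11, opposite in sign to the difference in the sums. The part of these cell type markers and of depth in the calls was not tested beyond the thinned counts given with each gene.

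Cldn26 stood at 102, 187 and 162 CPM in CDX2-high libraries 37, 38 and 39 and at 17.1, 57.6 and 37.04 in CDX2-low libraries 40, 41 and 42. All CDX2-high libraries lay above all CDX2-low ones, although the counts behind them were small (2 to 48). The log2 fold change was 1.98 with a standard error of 0.41 (edgeR adjusted p = 0.00336), and it passed under every alternative run, with values from 1.68 to 2.44 and adjusted p from 7.99e-05 to 0.0199.

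Cldn4, a claudin of tight epithelia, measured 260, 249 and 268 CPM with high CDX2 and 454, 453 and 452 CPM with low CDX2. The groups did not overlap (mean 259 ± 9.78 and 453 ± 1.203 CPM, SD, n = 3). The counts behind them were 41, 64 and 73 with high CDX2 and 53, 63 and 61 with low CDX2. Counting error at such counts is larger than these SDs, which are therefore no measure of how closely libraries repeat. Its log2 fold change was -0.82 with a standard error of 0.21 (edgeR adjusted p = 0.0199). The call was close to the threshold: it was lost with DESeq2 (adjusted p = 0.0552), without a filter on low counts (0.104), after thinning (0.0507) and without library 37 (0.0920), 38 (0.115), 39 (0.0936) or 40 (0.0512), while the fold change stayed between -1.05 and -0.72 and the adjusted p over all alternatives between 0.0217 and 0.115.

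Cldn7 followed the direction of Cldn4 without passing. It had 57.1, 73.9 and 58.8 CPM against 94.3, 144 and 81.5, so that the groups did not overlap, yet its log2 fold change of -0.75 had a standard error of 0.36 (edgeR adjusted p = 0.253), and it was -0.46 without library 41. Groups did not overlap for 22.7% of all tested genes, and for 5 of the 9 tested members. Cldn3 had 279, 163 and 110 CPM against 180, 317 and 207, and the groups overlapped (log2 fold change -0.44, edgeR adjusted p = 0.470). Leaving out 1 library moved Cldn3 between -0.78 (without library 37) and -0.15 (without 39), and it was -0.16 without 41 and -0.17 after thinning. Cldn6 had 603, 556 and 614 CPM against 617, 1101 and 452, where CDX2-low library 41 stood far above its group (log2 fold change -0.31, edgeR adjusted p = 0.548). Without that library the sign of Cldn6 turned, to 0.15 (edgeR adjusted p = 0.801), and without library 42 it was -0.55.

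Of the adhesion genes, Cdh1 had 546, 638 and 526 CPM against 489, 554 and 763 (log2 fold change -0.10, standard error 0.21, edgeR adjusted p = 0.864). Epcam had 216, 229 and 276 CPM against 266, 266 and 200 (log2 fold change -0.02, standard error 0.24, edgeR adjusted p = 0.984). Both overlapped between the groups, and the sign of each turned under some alternatives. Tjp1 had 3 to 12 counts in each library, which was too few for the test.

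The desmosomal genes Perp and Dsp moved in opposite directions. Perp measured 241, 303 and 298 CPM in CDX2-high and 146, 137 and 104 CPM in CDX2-low libraries, with no overlap (log2 fold change 1.13, standard error 0.26, edgeR adjusted p = 0.00937). Dsp measured 44.4, 70.0 and 73.5 CPM against 120, 115 and 230 (log2 fold change -1.27, standard error 0.35, edgeR adjusted p = 0.0299). Every CDX2-low library was above every CDX2-high one for Dsp, and library 42 was the highest. Without library 42 the Dsp log2 fold change was -0.84 (edgeR adjusted p = 0.257). The Dsp call was also lost at changes close to the full one: -1.30 with DESeq2 (adjusted p = 0.0999), -1.15 after thinning (0.184) and -1.10, -1.31 and -1.39 without library 37, 38 or 39 (0.111, 0.0675 and 0.0730), with a range of 0.0186 to 0.257. Perp was lost after thinning (log2 fold change 1.097, edgeR adjusted p = 0.0515) and without library 39 (1.09, 0.0555), with changes between 1.01 and 1.24 and adjusted p between 0.00288 and 0.0555 over all alternatives.

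**Figure D1:**
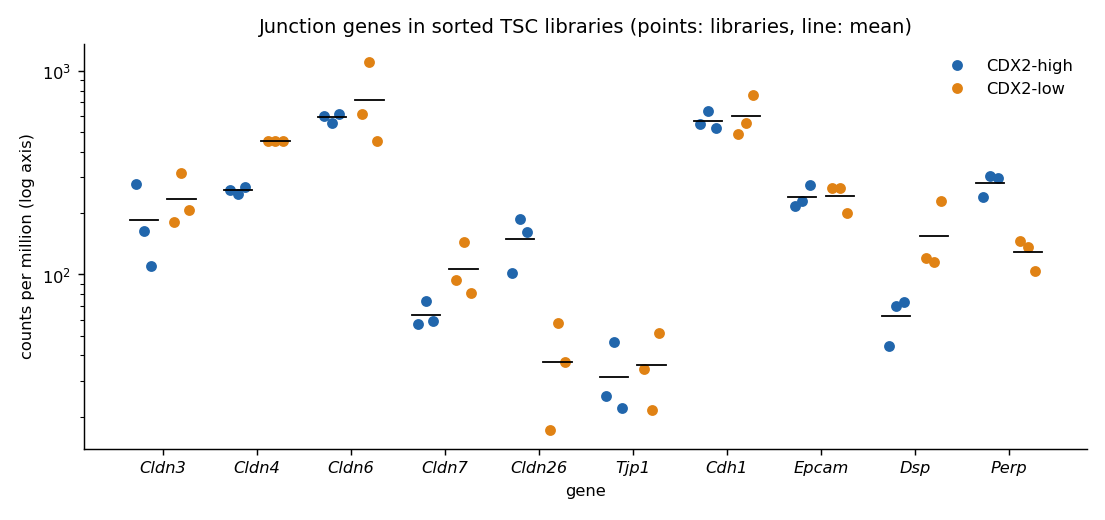
CPM (log axis) of the 10 junction genes in 3 CDX2-high and 3 CDX2-low bulk libraries, with points for libraries and lines for group means. Cldn26 and Perp lie higher in CDX2-high libraries, Cldn4, Cldn7 and Dsp lie lower, and Cldn3, Cldn6, Tjp1, Cdh1 and Epcam overlap.

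Of the wider junction families, several genes passed in the same bulk comparison. Among 8 tested tight junction and polarity genes, 2 fell in CDX2-high libraries, the polarity genes Prkci (log2 fold change -1.91) and Pard6b (-1.44), and none rose. Of 9 adherens junction genes 0 passed with edgeR, 1 (Pvrl2, named after its value was seen) had an unadjusted p under 0.05 and 0 passed with DESeq2. Among 5 desmosome genes Dsg2, a desmosomal cadherin, fell (-1.18) together with Dsp, and Perp rose. Of 2 gap junction genes, Gjb5 fell (-1.72), of 5 basal contact genes the linker Plec rose (1.198), of 4 epithelial transcription and splicing factors Klf5 rose (1.06), and of 3 mesenchymal genes the filament gene Vim rose (0.94). With DESeq2, Dsg2, Gjb5 and Vim did not pass. The 3 genes whose log2 CPM ran most alike over the 6 libraries were Cyp26a1, Gtf2f2 and Nudt21 for Cldn26 (r = 0.990, 0.988 and 0.978), Klf6, Ptprf and Rptor for Cldn4 (0.991, 0.990 and 0.990), Pex5, Smyd3 and Phlda2 for Dsp (0.987, 0.986 and 0.981) and Polr2l, Sdhc and Timm17b for Perp (0.994, 0.990 and 0.982), out of 3005 candidates each. All 6 points share the same sort and the same difference in depth.

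Across the single-cell libraries the genes spanned very different ranges. Cldn3 was lowest in differentiated cells and highest in blastoid cells, Cldn7 and Tmem114 were nearly absent from the differentiated library, and Cdh1 varied least. The values are CPM of the UMIs outside the mitochondrion, with exact 95% Poisson intervals that cover counting error only.

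Promoter windows are shown for the claudins whose levels differed most between libraries, Cldn3, Cldn7 and Tmem114, and for Cldn4, which lies on chromosome 5 like Cldn3 and differed less. They come from RefSeq (GRCm38.p6), run 5′ to 3′ on the gene's strand from 250 bases before to 50 bases after an annotated start, and carry motif matches in capitals.
Cldn3 promoter, chr5:134985964-134986263, plus strand: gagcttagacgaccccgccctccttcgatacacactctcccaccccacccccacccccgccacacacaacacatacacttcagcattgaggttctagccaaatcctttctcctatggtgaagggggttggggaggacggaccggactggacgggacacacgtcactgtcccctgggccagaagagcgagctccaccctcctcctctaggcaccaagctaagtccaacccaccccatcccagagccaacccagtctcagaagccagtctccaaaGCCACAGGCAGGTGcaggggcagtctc
Cldn4 promoter, chr5:134946885-134947184, minus strand: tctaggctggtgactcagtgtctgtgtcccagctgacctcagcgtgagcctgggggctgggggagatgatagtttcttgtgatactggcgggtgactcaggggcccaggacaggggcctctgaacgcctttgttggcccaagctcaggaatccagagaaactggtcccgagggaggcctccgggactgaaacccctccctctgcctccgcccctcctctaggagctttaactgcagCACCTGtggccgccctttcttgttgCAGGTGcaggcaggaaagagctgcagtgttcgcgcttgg
Cldn7 first promoter, chr11:69964529-69964828, plus strand: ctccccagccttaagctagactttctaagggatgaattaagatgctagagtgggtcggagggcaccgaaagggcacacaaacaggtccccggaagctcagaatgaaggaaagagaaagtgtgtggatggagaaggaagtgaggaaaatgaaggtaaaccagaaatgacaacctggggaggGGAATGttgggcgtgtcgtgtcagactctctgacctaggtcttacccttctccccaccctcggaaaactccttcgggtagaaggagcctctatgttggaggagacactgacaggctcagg
Cldn7 second promoter, chr11:69965171-69965470, plus strand: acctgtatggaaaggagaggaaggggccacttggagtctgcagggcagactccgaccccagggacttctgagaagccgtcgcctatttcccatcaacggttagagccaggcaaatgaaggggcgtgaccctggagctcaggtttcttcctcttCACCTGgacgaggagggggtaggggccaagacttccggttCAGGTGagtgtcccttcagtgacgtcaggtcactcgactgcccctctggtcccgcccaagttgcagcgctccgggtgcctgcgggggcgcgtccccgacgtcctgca
Tmem114 promoter, chr16:8425087-8425386, minus strand: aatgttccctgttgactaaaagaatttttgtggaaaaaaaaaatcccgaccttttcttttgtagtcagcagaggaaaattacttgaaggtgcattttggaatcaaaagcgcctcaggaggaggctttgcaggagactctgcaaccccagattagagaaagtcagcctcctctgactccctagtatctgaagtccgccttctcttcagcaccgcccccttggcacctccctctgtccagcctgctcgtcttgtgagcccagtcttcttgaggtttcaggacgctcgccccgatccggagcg

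The windows were searched on both strands for the motifs AACCNGTT (grainyhead-like factors), GCCNNNGGC (TFAP2), GGAATG (TEAD), TTTATNG (CDX) and CACCTG (the E-box bound by SNAI and ZEB repressors), which 2.09%, 16.6%, 14.7%, 10.9% and 20.2% of 32851 promoters of the same length in the RefSeq table held. Of 9 promoter windows for 8 members in that table, 6 held CACCTG (Cldn3, Cldn4, Cldn6, the second Cldn7 window, Epcam and Dsp), 3 GCCNNNGGC (Cldn3, Tjp1 and Dsp), 2 GGAATG (Cldn6 and the first Cldn7 window), 1 TTTATNG (Epcam) and 0 AACCNGTT. In the Cldn3 window a GCCNNNGGC match and a CACCTG match share a base. The Tmem114 window held none of these letter strings, and a match describes letters only, not a bound site.

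Cldn3 measured 76.2 CPM in differentiated cells (248 UMIs), 175 in TSCs (943), 389 in pTSCs (949) and 551 in blastoid pTSCs (1277). Each step in that order was larger than its counting interval, with ratios of 2.30 (1.995 to 2.65), 2.22 (2.03 to 2.44) and 1.42 (1.30 to 1.54). Its exons overlap those of Wbscr25 on the opposite strand, and whether the counting used strand is not given in the sources used here.

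Cldn4 ran in the same order but over a narrower range, at 326, 336, 500 and 582 CPM. The differentiated and TSC libraries could not be ordered (ratio of TSC to differentiated 1.03, 0.956 to 1.11), pTSCs stood 1.49 times above TSCs (1.38 to 1.60) and blastoid cells 1.16 times above pTSCs (1.08 to 1.26). The smaller Cldn4 differences depended on scaling. The log2 ratio of blastoid cells to pTSCs was 0.22, and 0.11 with wells weighing equally. That of differentiated cells to TSCs was -0.05, and -0.21 with mitochondrial genes in the totals. Cldn6, a claudin of embryonic epithelia, measured 869, 1742, 1906 and 1814 CPM. The TSC, pTSC and blastoid libraries lay within 1.09 times of each other (pTSC to TSC, 1.06 to 1.13), and the TSC library was 2.005 times above the differentiated one (1.92 to 2.09).

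Cldn7 had 1 UMI in the differentiated library (0.307 CPM), 28.9 CPM in TSCs (156 UMIs), 49.2 in pTSCs (120) and 86.8 in blastoid cells (201). The ratio of TSC to differentiated was 94.2 (16.7 to 3745), a wide interval because it rests on that 1 UMI. Tmem114 had 7 UMIs in differentiated cells (2.15 CPM), 5 of them in 1 well, against 144 CPM in TSCs (774 UMIs), 150 in pTSCs (366) and 104 in blastoid cells (242). TSC and pTSC levels of Tmem114 could not be ordered (ratio 1.05, 0.921 to 1.18), and the blastoid level was below both.

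Tjp1 ran the other way, highest in differentiated cells at 324 CPM and at 196, 194 and 180 CPM in TSC, pTSC and blastoid cells. Those last 3 levels could not be ordered by neighbours, while differentiated cells stood 1.65 times above TSCs (1.52 to 1.80). Cdh1 lay between 1003 CPM in differentiated cells and 1527 in blastoid cells, with 1502 in TSCs and 1383 in pTSCs. Epcam split the libraries into lower and higher ones, at 364 and 567 CPM in differentiated and TSC cells and at 1106 and 1112 in pTSC and blastoid cells, whose levels could not be told apart (ratio 1.01, 0.952 to 1.06).

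Dsp was sparse everywhere, at 39.3, 21.0, 28.3 and 58.7 CPM (128, 113, 69 and 136 UMIs) in differentiated, TSC, pTSC and blastoid cells, and its exons overlap those of Gm10129 on the opposite strand. Blastoid cells held the highest level, and pTSC and TSC levels could not be ordered (ratio 1.35, 0.986 to 1.84). Perp peaked in the pTSC library at 1439 CPM, beside 664 in differentiated, 564 in blastoid and 447 in TSC cells.

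**Figure D2:**
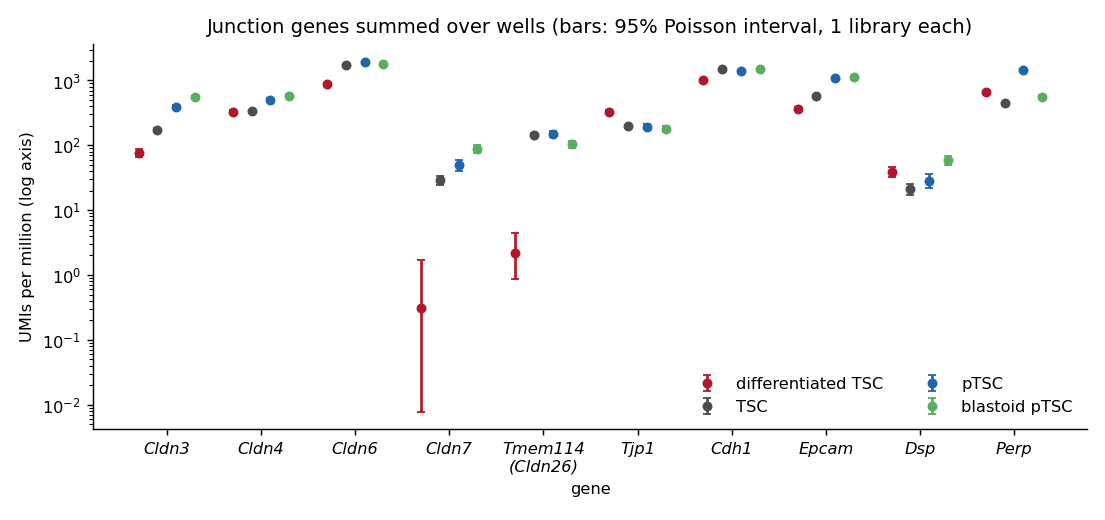
CPM of UMIs (log axis) of the 10 junction genes in 4 single-cell libraries, summed over kept wells, with 95% Poisson intervals as bars. Cldn7 and Tmem114 stand at 0.307 and 2.15 in the differentiated library, against 28.9 and 144 in the TSC library.

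Against the TSC library, the differentiated library had 4 members at least 2-fold lower (Cldn3, Cldn6, Cldn7 and Tmem114, all claudins) and 0 at least 2-fold higher, where 17.5% of 12158 measured genes were at least 2-fold higher and 18.0% at least 2-fold lower. Cldn6 sat at the threshold. Mitochondrial genes held 22.9% of all UMIs in the differentiated library, 13.8% in TSCs, 15.1% in pTSCs and 19.3% in blastoid cells; with them in the totals, the same count of 4 members was at least 2-fold lower. The members' median log2 ratio was -0.61 and that of all genes 0.05. Cdh1 (1.498-fold) and Epcam (1.55-fold) were lower by less, Cldn4 was level, and Tjp1, Dsp (1.88-fold, 1.44 to 2.44) and Perp (1.48-fold) were higher. Against the pTSC library, 6 members were at least 2-fold lower, the same 4 claudins with Epcam (3.04-fold, 2.83 to 3.25) and Perp (2.17-fold, 2.05 to 2.29), and 0 were higher, beside 22.5% of 11503 measured genes lower and 20.5% higher. The median log2 ratio was -1.12 over the members and 0.02 over all genes. Perp in differentiated cells lay above its level in TSCs and in blastoid cells (1.18-fold, 1.098 to 1.26) and below that in pTSCs. Cldn3 was 5.11-fold lower than in pTSCs (4.44 to 5.90), while Tmem114 was 66.8-fold lower than in TSCs (32.3 to 167) and 69.8-fold lower than in pTSCs (33.5 to 175).

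In the wider lists, 7 of 11 measured claudin family genes were at least 2-fold lower in the differentiated library than in TSCs and 3 higher (median log2 ratio -1.20), the 7 including 4 of the members. With at least 50 UMIs, Cldn9 was at 3.07 against 22.6 CPM (7.37-fold lower), Cldn23 was 3.48-fold higher (2.36 to 5.20) and Cldnd1 2.39-fold higher (2.15 to 2.65). Other tight junction and polarity genes had 1 higher and 4 lower of 27 (median -0.02), and Cxadr, a junction receptor, was at 68.8 against 132 CPM. Adherens junction genes had 0 higher and 3 lower of 15, with P-cadherin (Cdh3) at 70.7 against 160 CPM and the catenin Ctnna1 1.98-fold higher. Among 10 desmosome genes 1 was higher, the plaque gene Pkp2 (386 against 138 CPM, 2.80-fold), and 1 lower, Pkp4 (4 against 62 UMIs). Mesenchymal genes had 4 higher and 2 lower of 9, with Zeb1 at 11.7 against 3.15 CPM and Vim at 70 against 0 UMIs, and with Mmp2 2.55-fold lower (23 against 97 UMIs) and Twist1 2.09-fold lower (15 against 52). Vim had 108 to 283 CPM in the bulk TSC libraries, unlike the single-cell TSC library. Among the blastocyst fluid transport genes, the sodium pump subunit Atp1b1 was 2.09-fold higher and the water channel Aqp11 2.84-fold lower.

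The pTSC library had 2 members at least 2-fold higher than the TSC library, Perp (3.22-fold, 3.05 to 3.39) and Cldn3 (2.22-fold), and 0 lower, beside 17.6% of 12070 genes higher and 13.9% lower. Epcam lay just under the threshold at 1.95-fold (1.85 to 2.06), Cldn7 at 1.70-fold and Cldn4 at 1.49-fold. With wells weighing equally, 3 members passed, Cldn7 among them (log2 ratio 1.16 against 0.77). The median log2 ratio was 0.50 over the members and -0.04 over all genes. Medium, line and library differ together here and cannot be told apart.

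Some junction genes outside the 10 were far lower in pTSCs than in TSCs. Gap junction genes had 1 higher and 4 lower of 5, with Gjb2 at 3 against 733 UMIs (111-fold lower, 37.7 to 537), Gja4 6.78-fold lower and Gja1 4.90-fold higher. Of 26 other tight junction and polarity genes 2 were higher and 6 lower, among them the scaffold Tjp3 (7.36-fold) and Pard6g (2.69-fold). The fluid transport genes Aqp11 (10.6-fold) and Aqp3 (4.28-fold) were lower. Mesenchymal genes had 6 higher and 1 lower of 10, led by fibronectin (Fn1) at 105 against 3.71 CPM. Of the 6, only Fn1 had at least 50 UMIs over both libraries. The lower gene was Foxc2 (4.12-fold, 10 against 91 UMIs). Fibroblast markers stood at 62.4 CPM in this library (5 of 9 genes with a UMI), carried by Thy1 (37.3) and Tagln (21.7), with the collagens Col1a2 and Col3a1 at 0. The part of other cells in the mesenchymal counts was not tested.

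In blastoid cells against pTSCs, 1 member was at least 2-fold higher (Dsp, 2.07-fold, 1.54 to 2.81) and 1 lower (Perp, 2.55-fold, 2.39 to 2.72), beside 13.4% of 11343 genes higher and 9.42% lower. Cldn7 (1.76-fold) and Cldn3 (1.42-fold) were higher by less, Tmem114 was 1.44-fold lower (log2 ratio -0.52; -0.88 with wells weighing equally), and Epcam, Tjp1 and Cldn6 differed by under 1.08-fold. The median log2 ratio was 0.08 over the members and 0.07 over all genes. Dsp fell under the threshold with TMM scaling of the sums, with mitochondrial genes in the totals and with all wells weighing equally, which left Perp alone. Tdgf1 (63 UMIs), Fgf4 (45) and Gdf3 (19), markers of the epiblast, were present in the blastoid library and at 0, 2 and 0 in pTSCs. Without the 18 of 257 blastoid wells and 1 pTSC well that held a UMI of Gdf3, Pou5f1 or Tdgf1, the log2 ratios were 1.07 for Dsp, -1.31 for Perp and -0.46 for Tmem114. Without the wells with at least 3 UMIs of the full epiblast or primitive endoderm lists, which left 106 blastoid and 43 pTSC wells, Tmem114 also passed, with a log2 ratio of -3.58.

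Several junction genes that were low in pTSCs were higher in blastoid cells. Among 26 other tight junction and polarity genes 6 were higher and 4 lower, with the adhesion molecule Jam2 at 83 against 2 UMIs (43.7-fold, 11.7 to 367), Tjp3 6.82-fold and Pard6g 3.94-fold higher. Of 4 gap junction genes 3 were higher and 1 lower: Gjb2 had 99 against 3 UMIs, Gjb5 was 2.27-fold higher and Gja1 2.33-fold lower. Klf4 (4.93-fold), the splicing factor Esrp2 (1.95-fold) and Aqp3 (5.26-fold) were higher, and Klf5 was 2.08-fold lower. Mesenchymal genes had 0 higher and 7 lower of 10, with Fn1 8.35-fold and Twist1 4.43-fold lower. These ratios use the same pTSC library as the preceding comparison, and the labels do not say how that library relates to line pTS1.

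**Figure D3:**
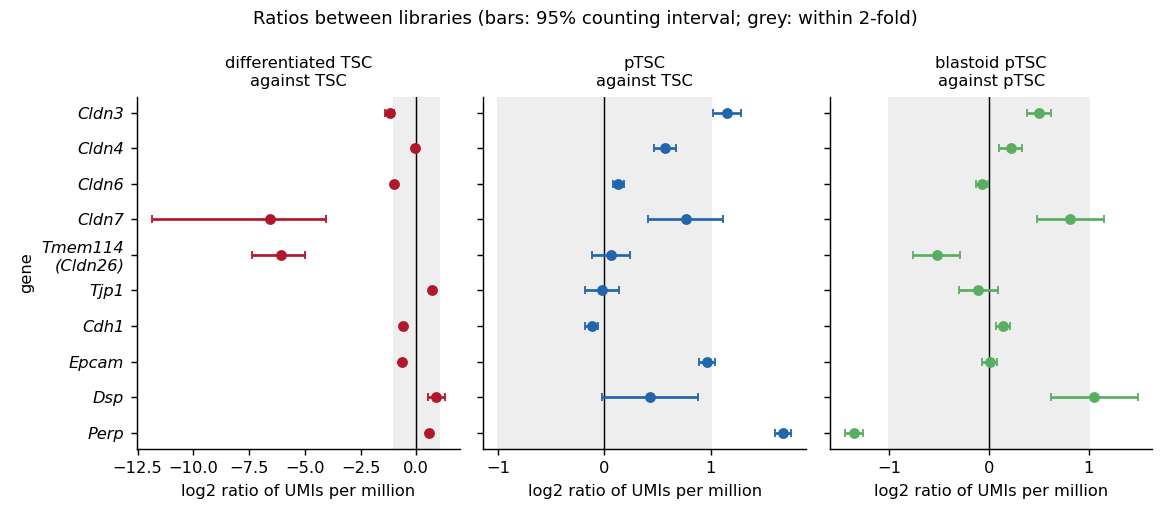
Log2 ratios of CPM for 10 junction genes in 3 comparisons of single-cell libraries, with 95% counting intervals as bars, a grey band for ratios within 2-fold and a separate horizontal scale in each panel. Cldn7 and Tmem114 lie far to the left in the first panel, and Perp lies right of the band in the second and left of it in the third.

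**Figure D4:**
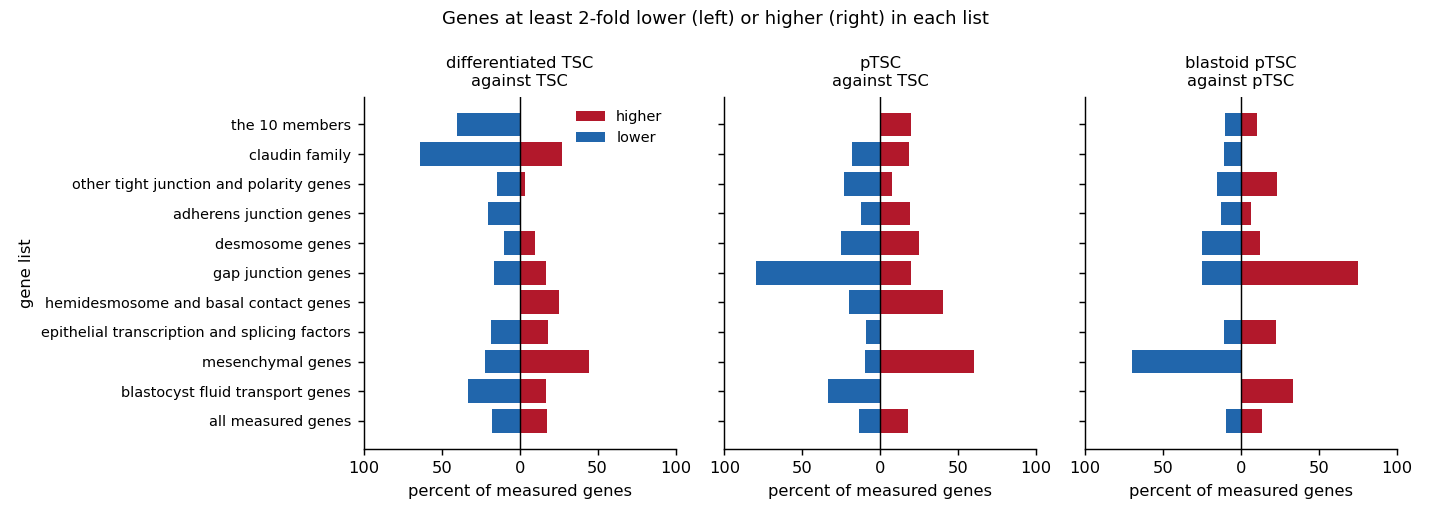
Percent of measured genes in each list that were at least 2-fold lower (left, blue) or higher (right, red) in 3 comparisons of single-cell libraries, with all measured genes at the bottom. Claudins extend left in the first panel (7 of 11), and mesenchymal genes extend right in the second (6 of 10) and left in the third (7 of 10). Genes count from 10 UMIs over both libraries. At least 50 UMIs were reached only by Fn1 among those 6, and only by Fn1 and Twist1 among those 7.

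Cells were next compared at equal depth, after thinning each to 2000 UMIs, with exact binomial 95% intervals. Cldn3 was found in 8.81% of differentiated cells (5.93 to 12.5), 25.5% of TSCs (20.8 to 30.6), 48.2% of pTSCs (42.4 to 54.0) and 58.0% of blastoid cells (51.7 to 64.1). Without thinning these shares were 36.2%, 78.9%, 80.3% and 83.3%. Epcam was found in 49.7%, 67.0%, 84.9% and 81.7% (86.5%, 98.4%, 96.7% and 97.7% without thinning), and Perp in 59.4%, 49.4%, 86.6% and 55.6% (86.5%, 90.9%, 98.0% and 87.5% without thinning). For Perp, the pTSC share lay above those of all other libraries. Cldn6 and Cdh1 were found in over 90% of cells of the TSC, pTSC and blastoid libraries and in 69.5% and 76.1% of differentiated cells. Of 318 differentiated cells, 0 held a UMI of Cldn7 or of Tmem114 after thinning. By the rule of 3 counts for a count of 0, this allows up to 0.943% of cells with a UMI at that depth, and the exact upper bound is 1.15%; both limit cells with a UMI, not cells that express the gene. Without thinning, 0.314% held a UMI of Cldn7 and 34.6% of TSCs did. No cell type known to lack the other members was in the data, so a background share was not measured for them. Cldn7 was found in 7.23%, 8.36% and 15.2% of TSCs, pTSCs and blastoid cells, Dsp in 5.03%, 4.09%, 4.68% and 10.5% of differentiated, TSC, pTSC and blastoid cells, Tjp1 in 41.5%, 37.4%, 31.1% and 33.9%, and Cldn4 in 43.4%, 46.9%, 57.9% and 62.3%. The intervals of Tjp1 in neighbouring libraries overlapped.

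**Figure D5:**
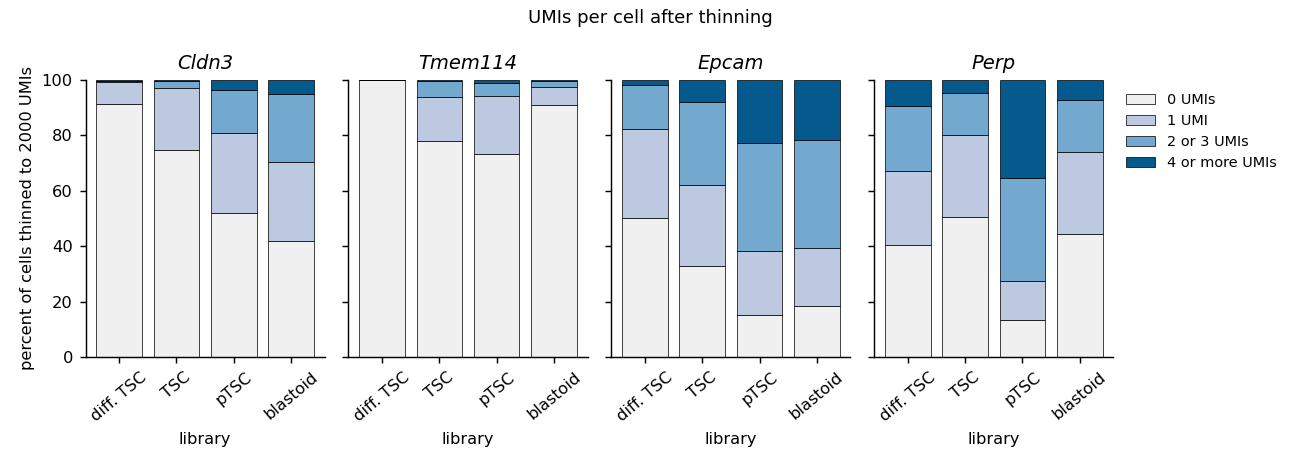
Percent of cells with 0, 1, 2 or 3, and 4 or more UMIs of Cldn3, Tmem114, Epcam and Perp after thinning to 2000 UMIs, for 318 differentiated, 318 TSC, 299 pTSC and 257 blastoid cells. Cells with no Cldn3 UMI make up 91.2% of the differentiated library and 42.02% of the blastoid one, and 35.5% of pTSCs hold 4 or more Perp UMIs.

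Tmem114 was concentrated in few cells. In blastoid cells 8.95% held a UMI after thinning (5.76 to 13.1), against 22.0% of TSCs (17.6 to 27.0) and 26.8% of pTSCs (21.8 to 32.2). The tenth of blastoid wells with the most Tmem114 held 86.4% of its UMIs, against 63.7% in TSCs and 45.9% in pTSCs, without thinning. In the same order this share was 52.2%, 69.0% and 72.5% for Dsp and 45.3%, 48.1% and 54.2% for Cldn7. Only in blastoid cells was Tmem114 above both of these sparse members. The variance of Tmem114 over cells divided by its mean was 1.90 in blastoid cells, 1.51 in TSCs and 1.46 in pTSCs after thinning. Each of these was above the 90th percentile of genes with a mean of at least 0.1 UMIs (1.41, 1.30 and 1.30). Several other members also had high values, but the percentiles cover genes of any mean from 0.1 UMIs up and were not matched on mean. Perp (2.33, 1.77, 1.88 and 1.86 in differentiated, TSC, pTSC and blastoid cells), Cldn6 (1.87, 1.53, 1.64 and 1.68) and Cdh1 (1.68, 1.41, 1.36 and 1.57) were above the 90th percentile in all 4 libraries (1.56 in the differentiated one), Cldn3 in 3 of them, and Cldn4 and Epcam in 2 each. Tjp1 stayed between 0.987 and 1.22, near the medians of all such genes (1.07 to 1.12). Its thinned mean was also lower, at 0.365 to 0.594 UMIs, against 1.69 to 3.83 for Cldn6 and 1.83 to 3.16 for Cdh1. Level and spread did not always go together: Tmem114 in blastoid cells had a mean of 0.136, and Epcam in pTSCs stayed below the percentile at 2.24. Whether any member varied more than genes of the same mean was not tested.

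Cells also differed in how many members they held. A thinned cell held a median of 4 members in the differentiated and TSC libraries and 5 in the pTSC and blastoid libraries, and at least 5 members were found in 24.2%, 46.5%, 75.9% and 69.6% of cells. Cells without any of the 10 were seen only in the differentiated library (7 of 318).

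Within libraries, the correlation of members from cell to cell was low at equal depth and higher without thinning. Over pairs of members each found in at least 25% of thinned cells, the median r of log counts was 0.05 in differentiated cells (15 pairs), 0.05 in TSCs (21), 0.03 in pTSCs (28) and 0.04 in blastoid cells (21). The highest single value was 0.26, between Epcam and Perp in blastoid cells. Without thinning, on counts scaled to 10000 a cell, the medians were 0.15, 0.07, 0.06 and 0.18, and the highest value was 0.40, between Cldn6 and Epcam in blastoid cells. These are descriptions over cells of 1 library, and sparse counts hold r down. By mean r over the 4 libraries among 2509 candidate genes, the 3 most alike were Lasp1, Cldn4 and Plet1 for Cldn3 (0.13, 0.12 and 0.12), Krt18, Iqgap1 and Itga6 for Cldn4 (0.16, 0.14 and 0.14), S100a10, Gng2 and Tmbim6 for Cldn6 (0.16, 0.14 and 0.13) and Rhox5, Cpne3 and Pou3f1 for Perp (0.20, 0.19 and 0.19). For Epcam they were Gsto1, Rhox5 and Hs3st3b1 (0.17, 0.16 and 0.14), for Tjp1 Cd81, Fxr1 and Ing1 (0.13, 0.11 and 0.10) and for Cdh1 Itpkb, Mcl1 and Jade3 (each 0.11). Itpkb had r of 0.02 with Cdh1 in TSCs and 0.19 in pTSCs. These genes were picked as the highest of 2509 candidates, and the r that unrelated genes would reach by such a pick was not tested. Tmem114 was too sparse for that rule and was examined after its values were seen, over the TSC, pTSC and blastoid libraries and 2730 candidates. Nat8l (mean r 0.31), Duox2 (0.28) and Inpp1 (0.21) came first, with Duox2 at 0.37 in TSCs, 0.06 in pTSCs and 0.40 in blastoid cells.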

How the data were processed

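RNA was measured with CEL-Seq2 in 6 bulk and 4 single-cell libraries. The bulk table holds whole-number counts per gene, as deposited by the authors. The single-cell tables hold whole-number transcript counts per gene and well, treated as estimated counts and used as deposited. The submitters' processing notes name STAR 2.5.3a. Build, annotation and counting program were not given in the sources used here. Annotated overlaps of exons come from GENCODE vM21.

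Members and gene lists were chosen with earlier results of these data known. The bulk test was edgeR's quasi-likelihood test (version 4.0.16 under R 4.3.3) after filterByExpr and TMM scaling, without covariates. DESeq2 1.42.0, upper-quartile scaling, no filter, thinning to the smallest total and leaving out each library were alternatives. A standard error is a log2 fold change's size over the square root of its F statistic. Single-cell counts were summed per library. A gene was measured if both libraries together had 10 counts or more, a count of 0 was set to 3 counts, and 2-fold was the rule of size. Ratio intervals are exact conditional binomial. The wells were sorted, but doublets were not called, so wells holding several cells may remain. In all, 66, 66, 85 and 127 wells below 2000 UMIs were left out. Both procedures were tested on simulated data.

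Named genes are all members, each listed gene past the threshold in bulk, those leading their list by ratio with at least 50 UMIs in single cells, and the 3 genes most alike each member by r. Some results that this rule names are not reported here.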

Additional observations from a re-analysis of the deposited data

How the results depend on the processing

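In the bulk comparison 4 members passed. With DESeq2 2 passed (both higher in CDX2-high), after thinning 1, without a filter 3 and with upper-quartile scaling 4, and leaving out 1 library gave 1 to 4 (without library 37, 38 or 39, 2, 2 and 1). No member that passed changed direction under these alternatives. Of those that did not pass, Cldn6 turned to 0.15 without library 41, Cdh1 to 0.13 after thinning and to 0.13 without library 42, and Epcam to 0.078 without a filter, 0.15 after thinning and between 0.046 and 0.068 without library 37, 38, 40 or 41; the range over libraries left out was -0.55 to 0.15 for Cldn6, -0.22 to 0.13 for Cdh1 and -0.13 to 0.068 for Epcam. Cldn26 was the only member that passed in each of them. No paired analysis was possible because no replicate number occurs in both bulk groups. In blastoid cells against pTSCs 2 members differed at least 2-fold, and 1 did with TMM scaling of the sums, with totals that include mitochondrial genes and with wells weighing equally. Leaving out wells with at least 3 epiblast or primitive endoderm UMIs gave 3, with Tmem114 the third, but it removed 256 of 299 pTSC wells and 151 of 257 blastoid wells, mostly for Utf1 and Zfp42, which all 4 libraries expressed. With wells weighing equally, pTSCs against TSCs gave 3 in place of 2, with Cldn7. The narrower filter on Gdf3, Pou5f1 and Tdgf1 gave 2 and was chosen after seeing the data, like the use of pTSCs as the undifferentiated library, which gave 6 in place of 4. Low counts limit Dsp and Cldn7 in single cells and Tjp1 in bulk. The 2 kinds of library also differed in level. Tjp1 stood at 21.6 to 51.9 CPM in the bulk TSC libraries and at 196 CPM in the single-cell TSC library. Dsp stood at 44.4 to 230 CPM and at 21.0 CPM. The cause of these differences was not tested.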
